A study of Homo sapiens with 30 samples.

Results

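The 10 genes described here encode the machinery that couples muscle excitation to calcium release and the store that supplies it: CACNA1S, CACNB1, RYR1, JPH1, JPH2, ATP2A1, ATP2A2, CASQ1, CASQ2 and TRDN. They were chosen by symbol, and all 10 were found among the 23262 genes of the time-course tables and the 23261 genes of the clone table. RNA came from Rh30 cells, an established line of human alveolar rhabdomyosarcoma (a muscle-like childhood tumour) with a PAX3-FOXO1 fusion gene. The engineered derivatives, Rh30 PAX3-FOXO1-FKBP and Rh30 FOXO1-FKBP, carry an FKBP degradation tag on the fusion protein or on FOXO1, and were given the degrader dTAG at 500 nM for 2, 6, 24 or 72 h or kept in DMSO. The clone set holds parental cells and clones 4, 10, 11 and 12 of the PAX3-FOXO1-FKBP design, with 2 libraries each and DMSO as the labelled treatment. Every group was grown in the same medium and derives from Rh30, so all carry the fusion gene. The FOXO1-FKBP line received the same compound at the same times and is the reference for it. No protein was measured here. Each clone is 1 line, and the sources used here do not say which clone gave the time-course line.

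In skeletal muscle the action potential runs into the transverse tubules, where the dihydropyridine receptor senses voltage. Its pore and voltage-sensing subunit is CaV1.1 (CACNA1S), which sits with the cytoplasmic beta subunit CACNB1 and opens the ryanodine receptor RYR1 in the facing membrane of the sarcoplasmic reticulum. Junctophilins (JPH1, JPH2) hold both membranes together, the SERCA pumps (ATP2A1, ATP2A2) return calcium to the store, calsequestrins (CASQ1, CASQ2) bind it there, and triadin (TRDN) links calsequestrin to the release channel. ATP2A1 is the pump of fast adult fibres. CASQ2 is the cardiac calsequestrin and is also made in developing and slow muscle, and JPH2 is made in heart as well as skeletal muscle.

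The 250 bases before the annotated gene start are shown for CASQ2 (chr1:115768715-115768964), CACNA1S (chr1:201112427-201112676) and JPH2 (chr20:44187189-44187438), because these are the members whose time trend differed between the lines. All 3 lie on the minus strand and are written 5′ to 3′ from RefSeq on GRCh38.p14. Capitals mark matches to the E-box CANNTG, the motif bound by myogenic factors of the MYOD1 and MYOG family, and to the MEF2 motif.
CASQ2: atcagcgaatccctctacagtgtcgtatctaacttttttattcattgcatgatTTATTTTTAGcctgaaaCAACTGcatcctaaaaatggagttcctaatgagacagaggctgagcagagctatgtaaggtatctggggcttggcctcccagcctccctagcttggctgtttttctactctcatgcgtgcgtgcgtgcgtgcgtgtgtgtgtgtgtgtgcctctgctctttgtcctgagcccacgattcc
CACNA1S: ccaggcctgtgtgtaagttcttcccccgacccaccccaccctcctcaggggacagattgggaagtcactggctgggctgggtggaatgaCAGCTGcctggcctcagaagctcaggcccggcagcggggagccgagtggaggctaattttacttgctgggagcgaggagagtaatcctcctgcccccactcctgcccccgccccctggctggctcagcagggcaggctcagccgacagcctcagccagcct
JPH2: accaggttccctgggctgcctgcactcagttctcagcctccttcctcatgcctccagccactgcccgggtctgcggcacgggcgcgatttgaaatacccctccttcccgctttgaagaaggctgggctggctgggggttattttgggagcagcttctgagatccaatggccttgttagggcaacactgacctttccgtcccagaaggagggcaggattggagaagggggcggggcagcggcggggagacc
The search covered both strands of windows from 250 bases before to 50 bases after each start, and 9 of the 10 members had such a window (11 windows in all). CASQ2 held CAACTG 180 bases and a MEF2 match 197 bases before its start. CACNA1S held CAGCTG 161 bases before its start, and JPH2 held no E-box, MEF2 or CArG match. Among members not printed, a window of ATP2A1 held CAGCTG 19 bases before the start and 1 of ATP2A2 held MEF2 matches 64 and 61 bases before the start, which overlap. CASQ1, CACNB1 and TRDN each held at least 1 CANNTG, and RYR1 held none of the motifs. Of 35116 windows of the same length, 68.7% held CANNTG, 17.9% CAGCTG, 2.99% the MEF2 motif and 1.29% the CArG motif. CAGCTG is also a CANNTG, so those shares overlap. A match is a run of letters and no evidence of binding.

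Time-course columns held 25863451 to 30466960 estimated reads, and clone libraries 17746684 to 26834005 reads. Each time-course column pools both samples of its condition, so a value at 1 time has no replicate error. Values below are counts scaled by TMM, a library-size correction, within each of the 3 tables, and log2 changes are taken on the normalised count plus 2. Muscle identity was present throughout: 10 of 12 skeletal muscle markers reached 10 normalised counts in every time-course column, with MYF5 listed at 0. The summed muscle markers went from 104112 in DMSO to 274440 at 72 h in the PAX3-FOXO1-FKBP line, and ranged from 77728 to 88225 in the FOXO1-FKBP line. In the PAX3-FOXO1-FKBP line ACTC1 held 27070 of the DMSO sum and 135000 of the 72 h sum, while MYOD1 went from 46010 to 28540. In the 2 h column of the PAX3-FOXO1-FKBP line, all 12 B lineage and leukocyte markers reached 10 counts, with a sum of 2835 against 347 to 670 in the other columns of that line, and MS4A1 stood at 222 against 0 in DMSO.

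After dTAG, 5 of the 9 members that could be tested rose over time in the PAX3-FOXO1-FKBP line and none fell. They were the voltage sensor CACNA1S, the release channel RYR1, the junctophilin JPH2, the fast-fibre pump ATP2A1 and the calsequestrin CASQ2. Across all 14255 genes tested, 2.41% rose and 2.13% fell. The test was edgeR's quasi-likelihood test of the slope of log2 count on log2(hours + 1), with Benjamini-Hochberg adjustment over all genes and a threshold of 0.05. Its 3 residual degrees of freedom measure the scatter of pooled columns about a line, not the error between cultures. In these bulk samples, more cells expressing a gene and more RNA per cell cannot be told apart.

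**Figure D1:**
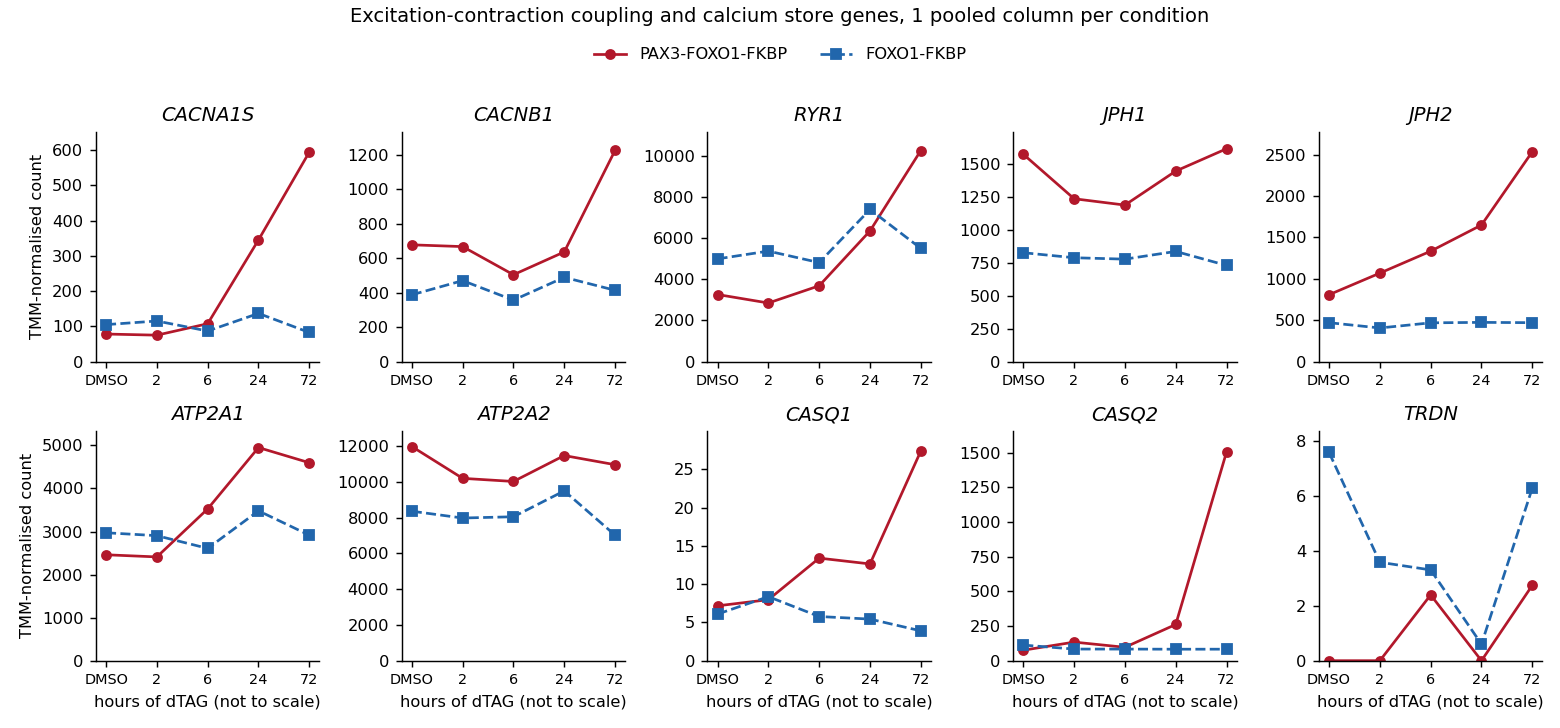
TMM-normalised counts of the 10 genes (y axes, each from 0) in DMSO and after 2, 6, 24 and 72 h of dTAG (x axes, not to scale) in the PAX3-FOXO1-FKBP line (red circles) and the FOXO1-FKBP line (blue squares), 1 pooled column per point. CASQ2 reached 1505 at 72 h in the PAX3-FOXO1-FKBP line, while its FOXO1-FKBP columns sat between 82.8 and 113.

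The dihydropyridine receptor genes moved differently from each other. CACNA1S was at 78.1 normalised counts in DMSO, 74.8 at 2 h, 107 at 6 h, 345 at 24 h and 595 at 72 h in the PAX3-FOXO1-FKBP line. The 24 h and 72 h columns stood above each earlier column. It rose with a slope of 0.54 ± 0.06 (SE; edgeR adjusted p = 0.00418), and its log2 change at 72 h was 2.90. CACNA1S in the FOXO1-FKBP line was at 105, 115, 86.6, 137 and 82.5 in the same order, with a slope of -0.02 ± 0.05 (edgeR adjusted p = 0.964). The tables of the lines were deposited and scaled separately, and the highest FOXO1-FKBP column stood below the 24 h column of the other line. CACNB1, the beta subunit, was at 677, 667, 503, 636 and 1224 in the PAX3-FOXO1-FKBP line. Only the 72 h column stood above DMSO, and the trend did not pass (slope 0.12 ± 0.06, edgeR adjusted p = 0.326). Its FOXO1-FKBP columns ran from 356 to 488.

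RYR1 was among the more abundant members by reads. Its PAX3-FOXO1-FKBP columns held 3254 in DMSO, 2842 at 2 h, 3679 at 6 h, 6342 at 24 h and 10246 at 72 h, which are log2 changes of -0.20, 0.18, 0.96 and 1.65. The early columns straddled DMSO and the late ones exceeded it. RYR1 rose with a slope of 0.29 ± 0.04 (SE; edgeR adjusted p = 0.0116). In the FOXO1-FKBP line it was at 4985, 5363, 4805, 7383 and 5494, with 24 h the highest column (slope 0.05 ± 0.04, edgeR adjusted p = 0.863). RYR1 has the longest transcript of the 10 genes, at 15377 bases. Over all genes, log2 changes of the FOXO1-FKBP line at 24 h followed transcript length with a Spearman rho of 0.30, and a correction for length and GC content took the RYR1 change there from 0.57 to 0.21. The same correction took its 72 h change in the PAX3-FOXO1-FKBP line from 1.65 to 1.86, where rho was -0.27.

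JPH2, the junctophilin that links the tubule to the store in heart and muscle, climbed at each step in the PAX3-FOXO1-FKBP line: 807 in DMSO, 1068 at 2 h, 1333 at 6 h, 1649 at 24 h and 2533 at 72 h. Each dTAG column stood above DMSO. JPH2 rose with a slope of 0.26 ± 0.02 (SE; edgeR adjusted p = 0.00182). The FOXO1-FKBP columns of JPH2 were 469, 405, 467, 473 and 469, a log2 change of 0.00 at 72 h. JPH1, the skeletal junctophilin, held 1571, 1234, 1186, 1443 and 1613 in the PAX3-FOXO1-FKBP line. Its 2 h and 6 h columns were the lowest and its 72 h column was near DMSO (log2 0.04, slope 0.02 ± 0.03, edgeR adjusted p = 0.798). The FOXO1-FKBP columns of JPH1 lay between 729 and 834.

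Of the calcium pumps, ATP2A1 rose and ATP2A2 did not pass. ATP2A1 (SERCA1) held 2460 in DMSO, 2411 at 2 h, 3526 at 6 h, 4951 at 24 h and 4598 at 72 h in the PAX3-FOXO1-FKBP line, so its highest column was 24 h and not 72 h. Its slope was 0.18 ± 0.04 (SE; edgeR adjusted p = 0.0259). The FOXO1-FKBP columns of ATP2A1 were 2971, 2904, 2609, 3481 and 2916, which overlap the early columns of the other line. ATP2A2 (SERCA2), the pump of slow muscle, heart and most other cells, stayed between 10014 and 11967 in the PAX3-FOXO1-FKBP line, with DMSO the highest column (slope 0.00 ± 0.03, edgeR adjusted p = 0.952). Its FOXO1-FKBP columns ran from 7015 to 9487.

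CASQ2 had the largest change of the 10 genes. Its PAX3-FOXO1-FKBP columns held 75.6 in DMSO, 134 at 2 h, 96.7 at 6 h, 261 at 24 h and 1505 at 72 h. The 72 h column stood above all other columns of both lines. CASQ2 rose with a slope of 0.70 ± 0.10 (SE; edgeR adjusted p = 0.0103), and its log2 change at 72 h was 4.28. Its FOXO1-FKBP value was highest in DMSO, at 113, and between 82.8 and 83.9 after dTAG. The 2 h value of CASQ2, a log2 change of 0.81, falls in the column with the leukocyte markers, and their part in it was not tested. Of cardiac markers, 8 summed to 1024 in DMSO and 1202 at 72 h, most of it NKX2-5 (810 and 895), with TBX5 at 0 and MYL7 at 0 in both. One of them, NPPB (a natriuretic peptide), went from 18.5 to 98.8 in this line and lay between 0.60 and 3.42 in the FOXO1-FKBP line. In the PAX3-FOXO1-FKBP line TBX20 went from 12.9 to 2.23, NPPA from 20.3 to 26.8 and HAND2 from 160 to 174. MYH6 there went from 2.77 to 5.42. The part of these markers in the CASQ2 value was not tested.

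CASQ1 was near the detection limit. It had 7.17, 7.97, 13.4, 12.6 and 27.4 normalised counts in the PAX3-FOXO1-FKBP line, and its trend did not pass (slope 0.32 ± 0.09, edgeR adjusted p = 0.0856). The 95% Poisson interval of the estimated count was 2.81 to 14.4 in DMSO and 17.8 to 39.3 at 72 h, which covers counting error only. Without the 24 h column the trend of CASQ1 passed, at an adjusted p of 0.0366 in edgeR, within a range of 0.0366 to 0.798 over 9 alternatives. CASQ1 in the FOXO1-FKBP line ran from 3.90 to 8.36 and was too low for the trend test. TRDN was not tested: it was listed at 0 in DMSO, 2 h and 24 h of the PAX3-FOXO1-FKBP line and reached 2.74 at 72 h. In the FOXO1-FKBP line it ran from 0.60 to 7.57, so neither line showed triadin RNA beyond a few reads.

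**Figure D2:**
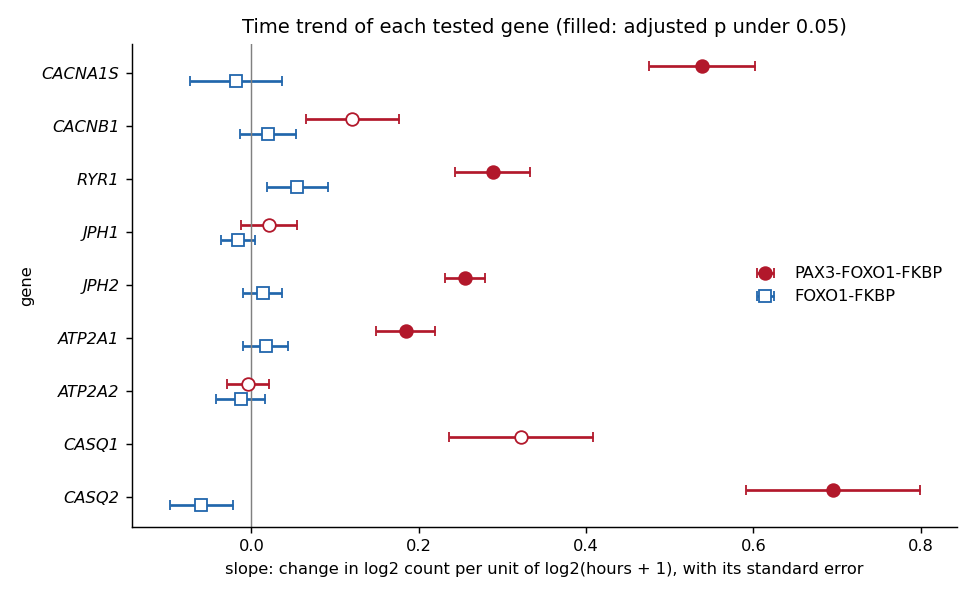
Slope of log2 count on log2(hours + 1) (x axis) with its standard error (bars) for the 9 tested genes (y axis) in the PAX3-FOXO1-FKBP line (red circles) and the FOXO1-FKBP line (blue squares), filled where the edgeR adjusted p is under 0.05. The 5 filled points, from 0.18 for ATP2A1 to 0.70 for CASQ2, are all of the PAX3-FOXO1-FKBP line; CASQ1 has no FOXO1-FKBP slope.

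Most of these calls needed the 72 h column. Without it, JPH2 still passed the trend test and the other 4 did not, with adjusted p-values of 0.201 for RYR1, 0.0859 for CACNA1S, 0.0796 for ATP2A1 and 0.177 for CASQ2 in edgeR. The slopes of those 4 without it were 0.22 for RYR1, 0.49 for CACNA1S, 0.23 for ATP2A1 and 0.35 for CASQ2, so that of CASQ2 fell most and that of ATP2A1 was larger. With the slope taken on hours, CACNA1S had an adjusted p of 0.0513 and ATP2A1 0.252. Over all 10 alternatives the adjusted p of JPH2 ran from 1.73e-15 to 0.0489, that of RYR1 from 4.17e-07 to 0.201, of CACNA1S from 1.62e-11 to 0.0859, of ATP2A1 from 7.98e-05 to 0.252 and of CASQ2 from 0.00132 to 0.177. Leaving out the 2 h column, with its leukocyte markers, left all 5 calls in place.

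By size, 8 members had a mean of at least 50 normalised counts. At 2 h and at 6 h, 0 of them were at least 2-fold from DMSO in either direction. Over 12333 genes the shares were 0.373% higher and 0.284% lower at 2 h, and 0.608% higher and 1.23% lower at 6 h. At 24 h, 4 members were at least 2-fold higher: CACNA1S (2.12), CASQ2 (1.76), JPH2 (1.03) and ATP2A1 (1.01), with RYR1 just under at 0.96. The background was 1.38% higher and 1.73% lower. ATP2A1 lies on the limit, and with DESeq2 size factors the count was 3. At 72 h, 4 members were at least 2-fold higher, now CACNA1S, CASQ2, JPH2 and RYR1, with ATP2A1 at 0.90 and CACNB1 at 0.85 just under. The background at 72 h was 3.41% higher and 3.05% lower, and 0 members were 2-fold lower at any time. The median log2 change of the 8 genes went from -0.04 at 2 h to 0.26 at 6 h, 0.98 at 24 h and 1.27 at 72 h, while the median of all genes was between -0.01 and 0.01.

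In the FOXO1-FKBP line, 0 members were 2-fold from DMSO at any time and 0 of 8 tested members passed the trend test. The background in that line was 0.0751% at 2 h, 0.0584% at 6 h, 0.209% at 24 h and 0.442% at 72 h in either direction, and 0% of 13862 genes for the trend. At an unadjusted p under 0.05, edgeR gave 640 genes and 0 members, and DESeq2 called 1 gene after adjustment. Without the 24 h column edgeR called 1179 genes in that line, still with 0 members. The largest log2 change of the tested members there was the RYR1 value of 0.57 at 24 h.

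A direct test of the difference in slope between the lines, with 6 residual degrees of freedom, called JPH2, CACNA1S and CASQ2, all steeper in the PAX3-FOXO1-FKBP line. The background over 14506 genes was 1.12% steeper and 0.903% shallower in that line. JPH2 differed by 0.24 ± 0.03 (SE; edgeR adjusted p = 0.00403), CACNA1S by 0.55 ± 0.10 (edgeR adjusted p = 0.0163) and CASQ2 by 0.75 ± 0.14 (edgeR adjusted p = 0.0239). RYR1 differed by 0.23 ± 0.07 and ATP2A1 by 0.17 ± 0.05, and neither passed in edgeR (adjusted p = 0.131 and 0.134). A rise in one line without one in the other was therefore not shown to be a difference for RYR1 and ATP2A1. Without the 24 h columns, where RYR1 and ATP2A1 were at their highest in the FOXO1-FKBP line, both passed in edgeR (adjusted p = 0.0214 and 0.0236). Over 10 alternatives their ranges were 0.0214 to 0.867 and 0.0236 to 0.536. Without the 72 h columns 0 members passed, and without the 2 h columns only JPH2 did, CACNA1S and CASQ2 both being at an adjusted p of 0.101. With the slope on hours CASQ2 alone passed, JPH2 being at 0.101 and CACNA1S at 0.095 in edgeR. Over 10 alternatives the ranges were 3.09e-08 to 0.123 for JPH2, 1.02e-05 to 0.331 for CACNA1S and 0.00153 to 0.227 for CASQ2.

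Levels of different genes can be set side by side only per length, here as RPKM computed from the normalised counts, the column totals and the longest annotated transcript of each gene. In DMSO of the PAX3-FOXO1-FKBP line the order was ATP2A2 at 71.9, ATP2A1 at 23.8, JPH1 at 12.3, RYR1 at 7.25, JPH2 at 5.78, CACNB1 at 4.37, CASQ2 at 0.97, CACNA1S at 0.43 and CASQ1 at 0.13. At 72 h it was ATP2A2 at 65.8, ATP2A1 at 44.6, RYR1 at 22.8, CASQ2 at 19.3, JPH2 at 18.1, JPH1 at 12.6, CACNB1 at 7.90, CACNA1S at 3.30 and CASQ1 at 0.49. On this length CASQ2 moved from near the bottom to above the junctophilins and JPH2 passed JPH1. The order depends on the length taken: with the median transcript length, the 72 h levels were 412 for RYR1, 274 for ATP2A1, 182 for ATP2A2, 70.7 for CACNB1, 35.6 for CASQ2, 33.5 for JPH1 and 25.9 for JPH2. RYR1 was then first and JPH2 stayed below JPH1, while CASQ2 again lay above both junctophilins. With 1 pooled column per condition, neighbours in these orders have no measured spread. CACNA1S stayed low: its level at 72 h was under that of RYR1 in the same column on this scale.

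Within each gene pair, the share per length was followed over time, again with the longest transcript. JPH1 made up 68.0% of junctophilin in DMSO of the PAX3-FOXO1-FKBP line, 55.8% at 2 h, 49.3% at 6 h, 48.9% at 24 h and 41.0% at 72 h, while in the FOXO1-FKBP line it stayed between 62.9% and 68.0%. At 6 h JPH1 was lower than in DMSO (log2 -0.41) and JPH2 higher (0.72), and at 72 h JPH1 was near its DMSO value. ATP2A1 made up 24.9% of SERCA1 and SERCA2 in DMSO, 41.1% at 24 h and 40.4% at 72 h in the PAX3-FOXO1-FKBP line, against 34.3% to 40.1% in the FOXO1-FKBP line. The lines therefore started apart and ended close for the pumps. CASQ1 was 11.8% of calsequestrin in DMSO and 2.50% at 72 h, as CASQ2 rose. With the median transcript length of each gene, JPH1 went from 79.8% to 56.4% and ATP2A1 from 42.4% to 60.1%. The direction over time cannot differ between the lengths, as the length of a gene is fixed over all columns. Which of JPH1 and JPH2, or of ATP2A1 and ATP2A2, was the larger at 72 h did depend on the length. These shares rest on 1 column each and were not tested.

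**Figure D3:**
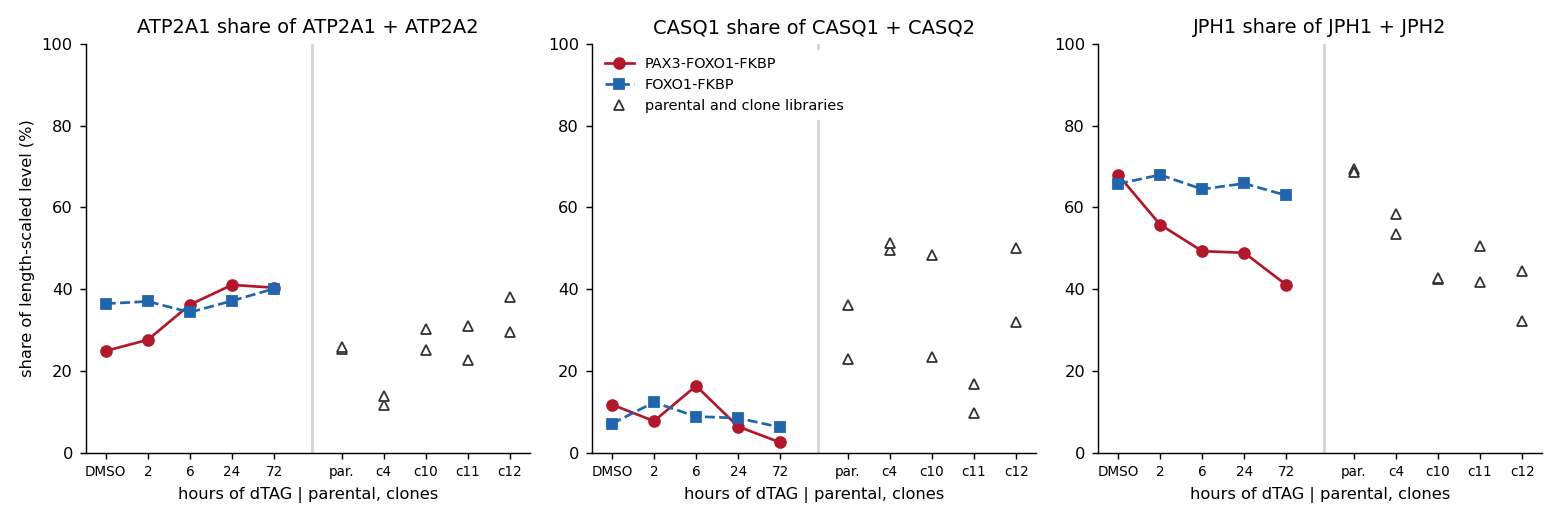
Share of ATP2A1, CASQ1 and JPH1 in the length-scaled level of their pair (y axes, percent) by hours of dTAG for PAX3-FOXO1-FKBP cells (red circles) and FOXO1-FKBP line (blue squares), and in the 2 libraries each of parental Rh30 and clones 4, 10, 11 and 12 (triangles). JPH1 went from 68.0% to 41.0% in the PAX3-FOXO1-FKBP line and was 68.7% and 69.4% in the parental libraries.

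Likeness to a shared mean profile differed between members. Over the 10 time-course columns, the correlation of each gene with the mean standardised profile of the other tested members was 0.89 for CACNA1S, CASQ1 and CASQ2, 0.88 for JPH2, 0.85 for CACNB1, 0.74 for JPH1 and ATP2A1, 0.63 for ATP2A2 and 0.42 for RYR1. These columns include the difference in level between the lines, so the values are a description. They do not measure likeness of time course alone. Of 12244 other genes, those most like the mean profile of the 9 members included WDR44 (Pearson r = 0.988), SMYD1 (0.982), MYBPC2 (0.979) and TP53INP2 (0.978). SMYD1, a muscle methyltransferase needed for sarcomere assembly, went from 164 to 1767 normalised counts in the PAX3-FOXO1-FKBP line (log2 3.41), and MYBPC2, the fast myosin-binding protein C, from 1393 to 4087 (log2 1.55). In the FOXO1-FKBP line the 72 h changes of these 4 genes lay between -0.26 and 0.20. The genes were picked on these same columns of both lines, so their values there are no separate evidence of likeness.

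A wider list of 67 genes of calcium handling and membrane excitation held 58 that were tested in the PAX3-FOXO1-FKBP line. Of these, 9 rose and 3 fell, against 2.41% rising and 2.13% falling over all genes tested. In the FOXO1-FKBP line 0 passed, beside 0% of all genes. Over the 52 listed genes with a mean of at least 50 normalised counts, the median log2 change at 72 h was 0.12. It was 1.27 for the 8 members and -0.01 for all genes under the same rule. Among 9 tested pump regulators and store proteins, 3 rose and 1 fell. SRL (sarcalumenin, a calcium-binding protein of the store) went from 71.8 to 530 (edgeR adjusted p = 0.00607). HRC, a histidine-rich calcium-binding store protein, went from 444 to 2740 (edgeR adjusted p = 0.00335). TMEM38A, a potassium channel of the store membrane, went from 225 to 543 (edgeR adjusted p = 0.0169). PLN (phospholamban, the inhibitor of SERCA2) fell from 138 in DMSO to 68.8, 17.0, 1.71 and 13.2 (edgeR adjusted p = 0.0286), with a mean just under 50. SLN (sarcolipin, a SERCA inhibitor of muscle) never passed 1.93 in either line.

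Of 9 tested triad and tubule membrane genes 3 rose, among them CAV3, the muscle caveolin, from 859 to 2189 (edgeR adjusted p = 0.0341), and the junctional kinase SPEG, from 2572 to 4061 (edgeR adjusted p = 0.0277). BIN1, which shapes the tubules, went from 3867 to 5734 and did not pass (edgeR adjusted p = 0.129). Of 9 other calcium channel subunits 0 rose and 1 fell. That was CACNA1G, a low-voltage-activated channel, from 935 to 306 (edgeR adjusted p = 0.0214). STAC3, the adaptor that CaV1.1 needs to reach and gate the triad, was very abundant at 81670 in DMSO and 149157 at 72 h and did not pass (edgeR adjusted p = 0.141). CACNG1, the gamma subunit of the dihydropyridine receptor, reached 14.2 at 72 h from 1.40 and did not pass (edgeR adjusted p = 0.0814).

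Of 11 other release channels and partners 0 rose and 0 fell. RYR3, the ryanodine receptor of developing muscle, stood at 1355 in DMSO, 1061 at 2 h, 479 at 6 h, 590 at 24 h and 506 at 72 h, opposite in direction to RYR1, with an edgeR adjusted p of 0.0509. It passed in 5 alternatives, library totals among them. Of 16 genes of calcium entry, extrusion and cytosolic binding 3 rose: the plasma membrane pump ATP2B1 from 7457 to 14634 (edgeR adjusted p = 0.0341), and the calcium-dependent kinases CAMK2A from 47.5 to 230 (edgeR adjusted p = 0.00299) and CAMK2B from 163 to 673 (edgeR adjusted p = 0.042). STIM1, the store sensor, went from 1342 to 1199 and did not pass (edgeR adjusted p = 0.882). Of 4 genes of sarcolemmal excitation SCN4A, the muscle sodium channel, fell at each step: 4171, 2541, 1450, 998 and 859 (edgeR adjusted p = 0.0021). Its FOXO1-FKBP columns ran from 1235 to 1603. Without the 72 h column 7 of the 9 rising genes of these lists no longer passed, HRC and CAMK2A being the exceptions, and CACNA1G did not pass either (edgeR adjusted p from 0.0859 to 0.467). Without the 2 h column SPEG, ATP2B1 and CAMK2B did not pass (0.0531 to 0.0782), and without the 6 h column SPEG and ATP2B1 did not (0.0669 and 0.0513). With the slope on hours TMEM38A, PLN, SPEG, CAMK2A, CAMK2B and SCN4A did not pass (0.053 to 0.314), and with library totals SPEG did not (0.0602). Without the 24 h column STAC3, BIN1 and RYR3 passed (0.015, 0.0325 and 0.0366). Of the named genes that passed the trend, CACNA1G, PLN, TMEM38A, CAV3, SPEG, ATP2B1 and CAMK2B did not pass the difference in slope. For them a difference between the lines was not shown (edgeR adjusted p from 0.0615 to 0.301).

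**Figure D4:**
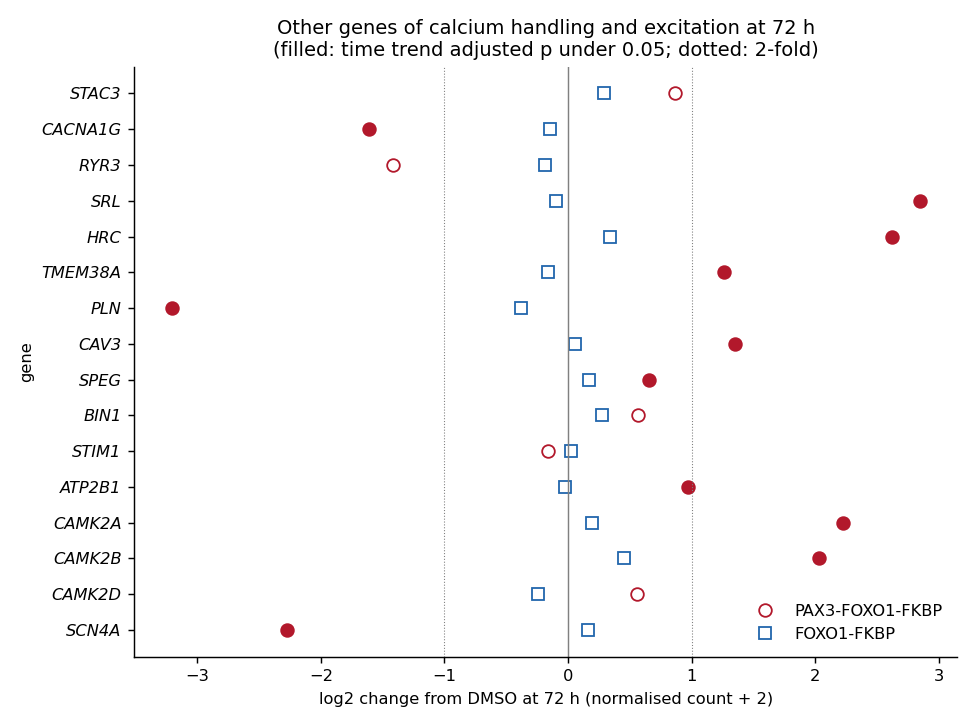
Log2 change from DMSO at 72 h (x axis, normalised count plus 2) of 16 other calcium-handling and excitation genes (y axis) in the PAX3-FOXO1-FKBP line (red circles) and the FOXO1-FKBP line (blue squares), filled where the trend had an edgeR adjusted p under 0.05, with dotted lines at 2-fold. SRL (2.85) and HRC (2.62) lie highest and PLN (-3.21) and SCN4A (-2.28) lowest, and the blue squares lie between -0.38 and 0.45.

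The clones carry the tag on PAX3-FOXO1 and, per the labels, received DMSO. They were compared with parental Rh30 by edgeR's quasi-likelihood test over all 10 libraries, which have 5 residual degrees of freedom. The labels do not say whether both libraries of a group are separate cultures, and the p-values measure the spread between these libraries. Clone calls were common over all 14175 genes: 25.1% higher and 22.3% lower in clone 4, 27.8% higher and 24.2% lower in clone 10, 26.5% higher and 25.1% lower in clone 11, and 27.8% higher and 24.7% lower in clone 12. Of 9 members tested, 5 were higher and 1 lower in clone 4, 4 higher and 0 lower in clone 10, 0 higher and 1 lower in clone 11, and 2 higher and 1 lower in clone 12. With 9 genes, these shares are a description beside a background of this size.

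JPH2 was the member most often above parental. Parental Rh30 held 277 and 274 normalised counts, clone 4 held 705 and 631, clone 10 held 1038 and 758, clone 11 held 344 and 405, and clone 12 held 689 and 434. No clone library overlapped the parental pair. For each clone taken alone, and in either direction, 75.7% to 84.7% of all genes did not overlap it. The share of genes that did so in all clones together was not computed. JPH2 was higher in clone 4 (log2 1.35 ± 0.23, SE; edgeR adjusted p = 0.000863), clone 10 (1.78 ± 0.23; edgeR adjusted p = 0.000174) and clone 12 (1.09 ± 0.23; edgeR adjusted p = 0.00238), and these calls held in each alternative run. In clone 11 the difference was 0.51 ± 0.23 and did not pass (edgeR adjusted p = 0.0788). JPH1 split the clones. Parental Rh30 held 576 and 550 of it, clone 4 held 908 and 662, clone 10 held 699 and 519, clone 11 held 324 and 265, and clone 12 held 300 and 317. It was lower in clone 11 (-0.86 ± 0.20; edgeR adjusted p = 0.00455) and clone 12 (-0.81 ± 0.20; edgeR adjusted p = 0.00636) in each alternative run. JPH1 was higher in clone 4 (0.55 ± 0.20; edgeR adjusted p = 0.0377).

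The pumps also differed by clone. ATP2A1 was at 1297 and 1347 in parental Rh30, clone 4 had 836 and 705, clone 10 had 2749 and 1901, clone 11 had 856 and 1283, and clone 12 had 1654 and 2383. Clones 4 and 11 lay below and clones 10 and 12 above the parental pair. The clone 11 difference did not pass (-0.24 ± 0.23; edgeR adjusted p = 0.412). ATP2A1 was lower in clone 4 (-0.71 ± 0.24; edgeR adjusted p = 0.0287) and higher in clone 10 (0.89 ± 0.23; edgeR adjusted p = 0.00876) and clone 12 (0.68 ± 0.23; edgeR adjusted p = 0.0305). ATP2A2 held 6149 and 6253 in parental, was higher in clone 4 at 10322 and 7066 (0.56 ± 0.17; edgeR adjusted p = 0.0172) and in clone 10 at 10177 and 9104 (0.71 ± 0.17; edgeR adjusted p = 0.00465), and was not called in clone 11 (4693 and 4581) or clone 12 (6349 and 6218). The clone 12 pair overlapped parental Rh30.

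CACNA1S held 19.0 and 31.6 in parental Rh30 and was higher in clone 10 at 102 and 54.5 (1.70 ± 0.39; edgeR adjusted p = 0.00453). Clones 4, 11 and 12 lay between 17.0 and 51.7 and did not pass. CACNB1 held 362 and 364 in parental and was higher in clone 4 at 520 and 555 (0.63 ± 0.16; edgeR adjusted p = 0.00755), with the other clones between 354 and 471. CASQ1 held 3.31 and 4.51 in parental and 14.7 and 10.2 in clone 4 (1.71 ± 0.55; edgeR adjusted p = 0.0249). That call was lost with DESeq2 (adjusted p = 0.142) and in edgeR with no filter on low counts (0.0735). CASQ2 was low in every group, from 8.42 to 33.9, and was called in none of the clones. TRDN had 0 reads in all 10 libraries, which with a limit of 3 counts over 214354922 reads allows up to 0.014 CPM (counts scaled to library size).

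**Figure D5:**
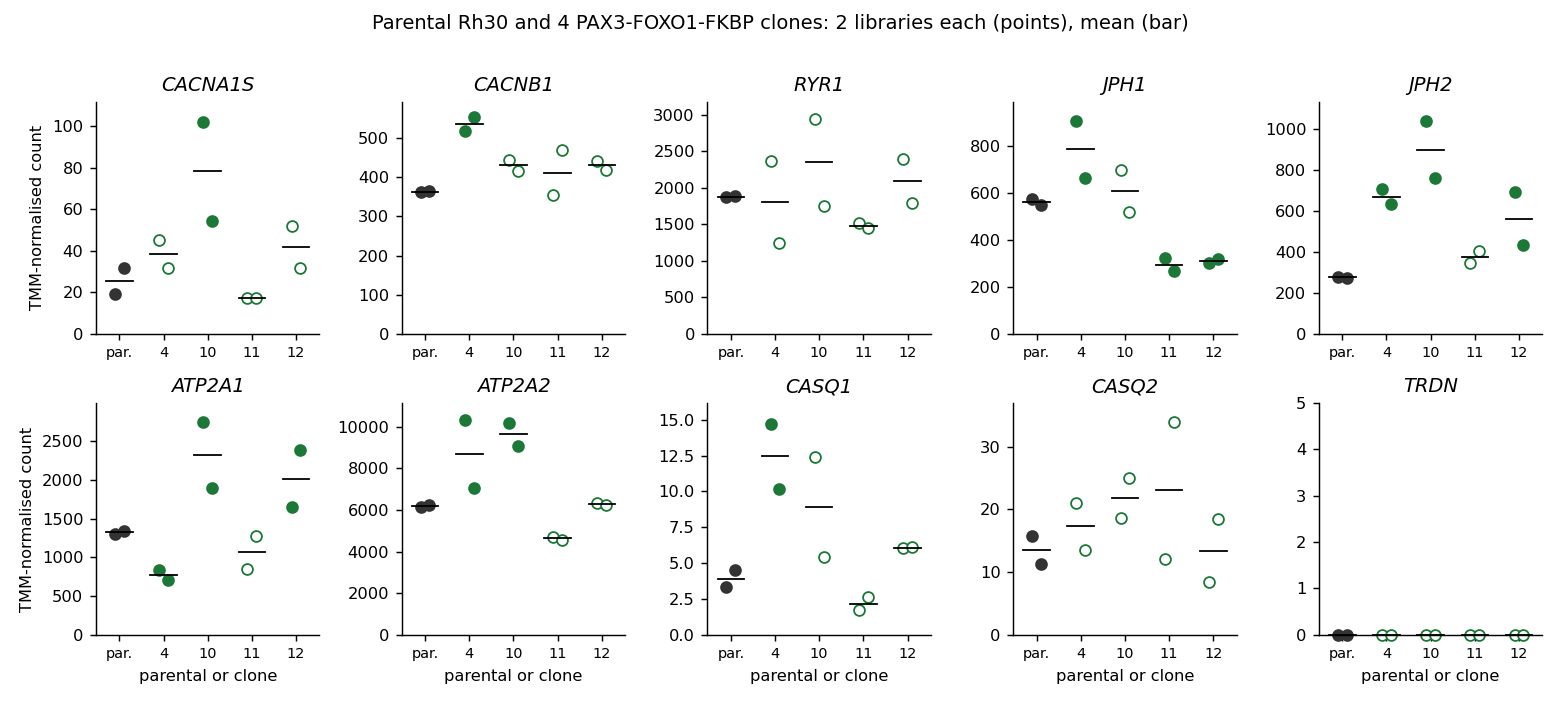
TMM-normalised counts (y axes, each from 0) of the 10 genes in parental Rh30 (par., black) and PAX3-FOXO1-FKBP clones 4, 10, 11 and 12 (green), 1 point per library and a bar at the mean of 2; filled green points are clones whose edgeR adjusted p against parental is under 0.05. JPH2 lies above the parental pair of 277 and 274 in each clone library, and TRDN is at 0 in all libraries.

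RYR1 was called in no clone. Parental Rh30 held 1876 and 1880, clone 4 held 2360 and 1243, clone 10 held 2938 and 1755, clone 11 held 1514 and 1442, and clone 12 held 2388 and 1792. Libraries of clones 4 and 10 differed by 1.90-fold and 1.67-fold for this gene and spanned the parental values. In those clones the ratio of the first to the second library followed transcript length over 12587 genes (Spearman rho 0.55 in clone 4 and 0.38 in clone 10, against 0.05 in parental Rh30), and its part in the RYR1 spread was not tested.

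Several clone calls rest on the parental pair. Without either parental library JPH2 alone was still called in clone 4. CACNB1, ATP2A1, ATP2A2, CASQ1 and JPH1 then had edgeR adjusted p-values from 0.0582 to 0.181, while over 14 alternatives the 5 ranged from 0.000473 to 0.332. Without the first library of clone 4 the count was 3, and without the second ATP2A1 was at an edgeR adjusted p of 0.089. JPH1 in clone 4 was also lost without either library of clone 11 or of clone 12 (edgeR adjusted p from 0.0575 to 0.0784). In clone 10, CACNA1S and ATP2A1 were lost without the first parental library (0.0501 and 0.0512) or the first clone 10 library (0.061 and 0.0916), against ranges of 0.000136 to 0.061 and 0.000192 to 0.0916 in edgeR or DESeq2. ATP2A1 in clone 12 was lost without either parental library (0.117 and 0.106) or the second clone 12 column (0.351), its range being 0.00483 to 0.351. ATP2A2 in clone 11, not called at 0.0974, passed without either clone 4 library (0.0103 and 0.00685), with the replicate block (0.0345) and with no filter (0.0307), within a range of 0.00685 to 0.249. Muscle markers summed to 64223 and 65772 in parental Rh30 and to 101336 to 167579 in the clones. Fibroblast markers summed to 21481 and 22380 in clone 10, against 782 to 1935 in the other libraries of the clone set. In the separately scaled PAX3-FOXO1-FKBP time course they summed to 19746 in DMSO, of which COL3A1 held 18180. Neuronal markers summed to 434 and 617 in clone 4, against 20.4 to 67.0 in the other libraries of the clone set. Only 1 of 5 neuronal markers reached 10 counts in each clone 4 library, and 3 were at 0. B lineage and leukocyte markers summed to 2329 in the second clone 11 library, where 3 of 12 reached 10 counts. They summed to 457 to 1335 in the other libraries of the clone set. The part of these marker lists in the member values was not tested.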

How the data were processed

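RNA sequencing of Rh30 cells was analysed from 3 tables. For the time courses the authors deposited estimated counts, 1 column per condition for 2 samples each, of which 73.6% are not whole numbers. For the clones they deposited raw read counts, 1 column per library. Per the submitters' processing notes, Trimmomatic 0.32, Bowtie2, Cuffdiff 2.1.1 and hg19 were used. The sources used here do not say what each did or how reads were counted. The 10 genes, the wider lists and the tests were chosen with earlier results of these data known.

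Estimated counts were rounded and tested with edgeR 4.0.16 (R 4.3.3), TMM scaling and filterByExpr (minimum count 10); genes with an isolated 0 beside values of 10 or more were left out as failed estimates. DESeq2 1.42.0 was an alternative. As columns are pooled, a 2-fold rule on genes with a mean of at least 50 took the place of a test at each time. Every member is described. From the wider lists, up to 4 genes passing a test, plus 8 genes whatever their values, are named, and the 5 genes most like the members' mean profile; 1 gene that both rules name is not reported here. Paralogs such as ATP2A1 and ATP2A2 share sequence, and the handling of shared reads is unstated. Transcript lengths come from GENCODE v29. Clone 12 columns carry no label number, so they are named by column order only. The tests were also run on simulated counts with the same spread setting for all genes and no length effect. The length dependence seen in these data was therefore not covered. Depth per column stands in the report; it limits CASQ1 and TRDN. Intervals and limits cover counting error only.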

Additional observations from a re-analysis of the deposited data

Results flagged for a closer look

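For 8 genes the time trend differed between the PAX3-FOXO1-FKBP and FOXO1-FKBP lines by the edgeR test of the difference in slope on log2(hours + 1). Of the 10 genes described, JPH2 differed by 0.241 (adjusted p = 0.00403), CACNA1S by 0.555 (adjusted p = 0.0163) and CASQ2 by 0.752 (adjusted p = 0.0239), each steeper in the PAX3-FOXO1-FKBP line. Of the wider lists, SRL differed by 0.49 (adjusted p = 0.00457), HRC by 0.352 (adjusted p = 0.00973), CAMK2A by 0.334 (adjusted p = 0.0232) and CAMK2D by 0.131 (adjusted p = 0.0461). SCN4A differed by -0.419 (adjusted p = 0.00249), with a falling course in the PAX3-FOXO1-FKBP line. These calls were lost on hours for JPH2 (0.101), CACNA1S (0.095), SCN4A (0.252), CAMK2A (0.396) and CAMK2D (0.0974). Without 72 h all but SCN4A were lost (0.0541 to 0.536). Leaving out 2 h also lost CACNA1S and CASQ2 (each 0.101), HRC (0.055), CAMK2A (0.101) and CAMK2D (0.195), and leaving out 6 h lost CAMK2A (0.0705) and CAMK2D (0.0956). CAMK2D was lost with library totals (0.099) and with no filter (0.0573) as well. SRL stood far apart already in DMSO, at 71.8 normalised counts in the PAX3-FOXO1-FKBP line and 3820 in the FOXO1-FKBP line, in tables that were scaled separately.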

How the results depend on the processing

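Of the 10 genes, 5 passed the trend test in the PAX3-FOXO1-FKBP line; 3 did with the slope on hours and 1 without the 72 h column. For the difference in slope the count of 3 became 5 with the DESeq2 Wald test, 1 with the slope on hours, 1 when 2 h was left out, 5 when 24 h was left out and 0 when 72 h was left out. Over all genes, the trend called 647 genes, 1046 with DESeq2, 216 on hours, 140 without 72 h and 1407 without 24 h; the difference in slope called 293, against 552, 154, 50 and 683, and 90 without 2 h and 164 without 6 h. The clone 4 count of 6 ranged from 1 to 6 when a library was left out, the clone 10 count of 4 from 2 to 4 and the clone 11 count of 1 from 1 to 2; without a parental library clone 4 gave 3923 and 3962 calls over all genes against 6723. The clone 11 count was 2 with no filter. Apart from the fewer columns or libraries of some alternatives, the cause was not tested.

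Replicate numbers did not pair parental with clones 4, 10 and 11, as deviations of same-numbered libraries correlated at 0.0075 to 0.024. Among those clones the correlations were 0.148 to 0.366, so their same-numbered libraries shared part of their deviation. With the replicate block, clone 11 had 2 called members (JPH1 and ATP2A2), RYR1 in clone 4 was at -0.1166, and the counts of clones 4 and 10 were as without it. The block could not be used for clone 12, whose columns carry no label number, or for the pooled time courses.

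The sign changed only for values that were not called. RYR1 in clone 4 (0.01) was -0.0232 with DESeq2 size factors, -0.0593 with no filter and -0.0236 with DESeq2, and ranged from -0.5742 to 0.3384 with a library left out. Leaving out a library gave ranges of -0.0174 to 0.6728 for RYR1 and -0.0376 to 0.3391 for JPH1 in clone 10, of -0.0283 to 0.3817 for CACNB1 and -0.1374 to 1.3332 for CASQ2 in clone 11, and of -0.0618 to 0.3527 for RYR1 and -0.6618 to 0.4576 for CASQ2 in clone 12. Without 72 h, slopes in the PAX3-FOXO1-FKBP line were -0.0377 for CACNB1, -0.0256 for JPH1 and 0.0184 for STIM1, those in the FOXO1-FKBP line 0.0633 for CACNA1S, 0.0395 for ATP2A2 and 0.0036 for JPH1, and differences in slope -0.0858 for CACNB1, -0.0512 for ATP2A2 and -0.028 for JPH1. ATP2A2 was at 0.0004 on hours in the PAX3-FOXO1-FKBP line and at -0.0006 for the difference with library totals. ATP2A1 was at -0.0024 in the FOXO1-FKBP line without 24 h. Depth limits CASQ1, CASQ2 in the clones and TRDN.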
